A study of Homo sapiens with 13 samples.

Results

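The first hour of a starvation time course was examined in H1975 cells, a human lung adenocarcinoma line used as a model of non-small cell lung cancer. The mean of the single array of 0.5 h and the single array of 1 h was set against the 3 arrays of 0 h. In the model each time kept its own level. These are 5 of the 13 control arrays. The other 8 control arrays cover 2 h to 48 h. All cells, those of 0 h included, had first been kept overnight in medium without fetal calf serum, and the labels give the control treatment as starvation medium alone, with no mention of epidermal growth factor (EGF). The 0.5 h and 1 h cells were harvested after 0.5 h and 1 h of that treatment, and the 0 h cells at its start. Whether the medium of the control cells was changed at 0 h is not given in the sources used here. The arrays were of the type GeneChip Human Gene 2.0 ST, on which a feature is the set of probes for 1 transcript. Values are SCAN scores, for which each array is standardised on its own, a score of about 0 is background, and a difference of 1 is not a doubling. Of 15638 features with a gene name, the 12976 with a score of at least 0 on some array were tested, and they carry 12375 symbols.

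Immediate early genes are transcribed within minutes of a change at the cell surface, because the factors that switch them on are already present and need only be modified. Serum response factor and the YAP coactivator, which read growth factor signals, actin tension and cell shape, are among these factors. The transcription factors EGR1, JUN and MYC, the matricellular proteins CYR61 and CTGF, and the MAP kinase phosphatase DUSP1 are textbook members of this class, and most of their transcripts decay again soon after. In cultured epithelial cells EGF and serum are the usual stimuli with which they are studied.

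1 of the 0 h arrays stood apart. Over the tested features 0 h replicate 1 correlated with the other 2 arrays of 0 h at 0.981 and 0.982, where these correlated at 0.996 with each other. The 0.5 h and 1 h arrays also correlated at 0.996. The median SD of a feature was 0.0564 over 3 arrays of 0 h and 0.0297 over replicates 2 and 3, against 0.0285 at 24 h and 0.033 at 48 h. The comparison of the early arrays with 0 h was therefore made over all 13 arrays and again without 0 h replicate 1. Removing an array because it differs from its group lowers the spread, so p-values without it may be too small. The median score of an array was 0.688 at 0.5 h and 0.675 at 1 h, against 0.651, 0.62 and 0.638 on 0 h replicates 1, 2 and 3, and no normalisation between arrays was applied. The single arrays were given the spread of the times with replicates. Since the labels do not state whether replicates came from separate cultures, the p-values cover only the spread among these arrays, which may be technical.

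Over all 13 arrays no feature differed between the early arrays and 0 h at an adjusted p under 0.05 by limma (0% of 12976 higher and 0% lower), and 1179 features had an unadjusted p under 0.05. With limma's array weights, which give less weight to arrays that fit their group poorly, 17 passed, all 17 of them among the 26 described next. The 2 fits share their arrays, so this overlap is not separate support. Without the weights the lowest adjusted p was 0.0976, that of CYR61. Without 0 h replicate 1, 26 features passed with both early arrays on the same side of the 0 h mean, 24 higher (0.185% of features tested) and 2 lower (0.0154%). The higher features lay 0.186 to 0.370 SCAN units above 0 h, and the median difference of all features was 0.0314. When the medians of the arrays were set equal, 24 features passed, 11 higher and 13 lower, and 13 of the 26 were among them. Without 0 h replicate 2 in addition, no feature passed by limma and 1290 had an unadjusted p under 0.05. Without 0 h replicate 3 in its place 26 passed, 21 higher and 5 lower, of which 13 were among the 26. Over the 13 arrays 25 of the 26 had the same sign and 21 an unadjusted p under 0.05. All 26 kept their sign under the 14 alternatives applied without 0 h replicate 1. The 26 were picked on all but 1 of these arrays, and the alternatives reuse the same arrays. Agreement in sign or in unadjusted p was therefore largely built in and is not separate support.

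Counting without a test, both early arrays lay above all 3 arrays of 0 h for 2689 features (20.7% of features tested) and below all 3 for 675 (5.2%). Against 0 h replicates 2 and 3 alone the counts were 4961 (38.2%) and 1232 (9.49%). The 24 features that rose all had both early arrays above 0 h replicates 2 and 3, so only replicate 1 was left to clear. Of the 4961 features of that kind 2689 cleared it, and of the 24 rises 20 did. LINC01004, KLF7-IT1, NAMPT and LRRC39 did not, and neither did HIST2H2AB among the lower ones, because 0 h replicate 1 lay inside or past the early arrays there. Of the 26, 4 carry names found only in the study's result table (CYR61, KLF7-IT1, HIST2H2AB and OTTHUMG00000171410), against 211 of the 12976 tested, and that table was itself ranked with the use of these control arrays.

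**Figure D1:**
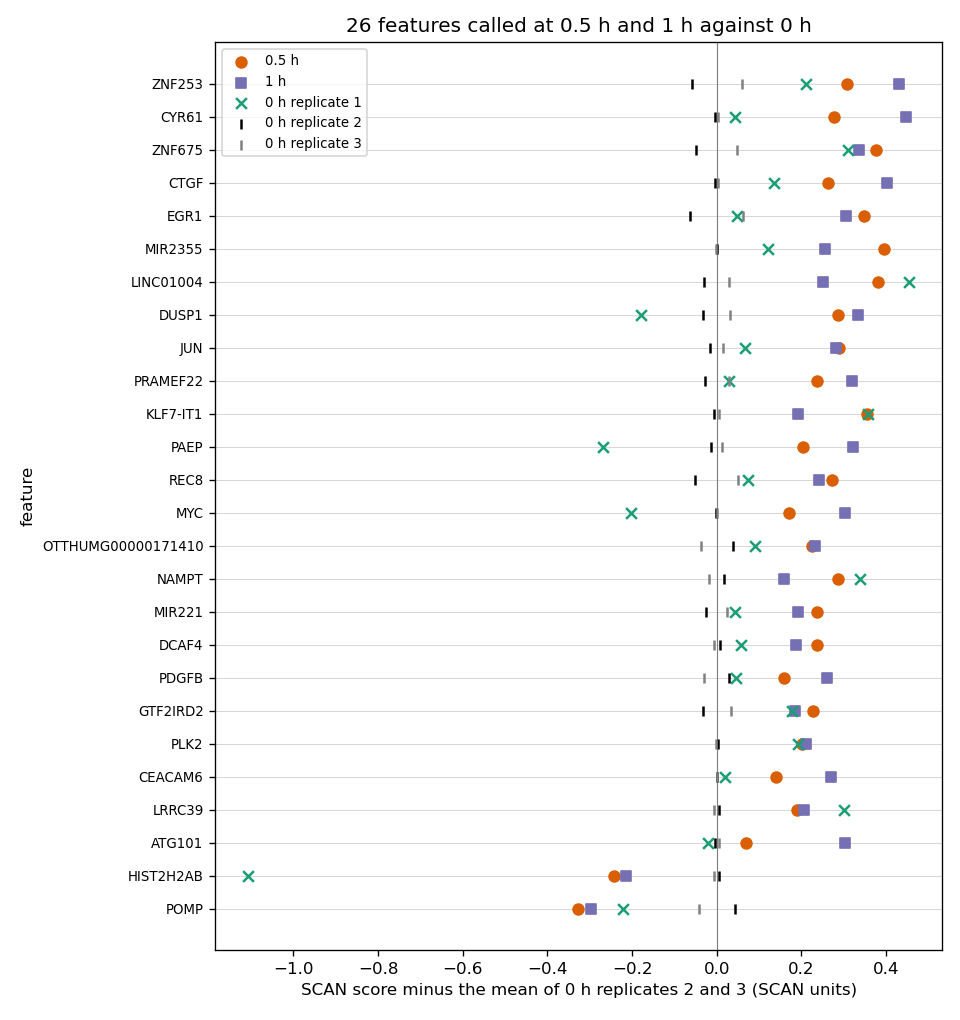
The horizontal axis gives the SCAN score minus the mean of 0 h replicates 2 and 3, in SCAN units, for each of the 26 features called without 0 h replicate 1. Circles are the 0.5 h array, squares the 1 h array, crosses 0 h replicate 1 and bars 0 h replicates 2 and 3. For all 24 higher features both early arrays lie to the right of replicates 2 and 3, against which they were called. For 20 of the 24 they also lie to the right of 0 h replicate 1. HIST2H2AB has 0 h replicate 1 far to the left of every other array.

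The matricellular genes CYR61 and CTGF, targets of YAP and serum response factor whose products bind integrins, rose together. CYR61 scored 1.13 at 0.5 h and 1.30 at 1 h, against 0.895, 0.848 and 0.855 on 0 h replicates 1, 2 and 3. CTGF scored 0.840 at 0.5 h and 0.979 at 1 h, against 0.710, 0.572 and 0.58 at 0 h. In both genes the groups did not overlap, the 1 h array was the higher of the early pair, and 0 h replicate 1 was the highest of the 0 h arrays. The difference without that replicate was 0.362 for CYR61 (SE 0.0404, adjusted p = 0.0021 by limma) and 0.334 for CTGF (SE 0.0377, adjusted p = 0.0021). With it the differences were 0.348 and 0.289, with adjusted p of 0.0976 and 0.255. The promoter of CTGF, named CCN2 in RefSeq, is shown because it holds 3 copies of GGAATG, the core that the TEAD partners of YAP read, given in capitals. It is chr6:131951323-131951622 of GRCh38.p14, minus strand, 250 bases before to 50 after the start of the gene.
CTGF promoter: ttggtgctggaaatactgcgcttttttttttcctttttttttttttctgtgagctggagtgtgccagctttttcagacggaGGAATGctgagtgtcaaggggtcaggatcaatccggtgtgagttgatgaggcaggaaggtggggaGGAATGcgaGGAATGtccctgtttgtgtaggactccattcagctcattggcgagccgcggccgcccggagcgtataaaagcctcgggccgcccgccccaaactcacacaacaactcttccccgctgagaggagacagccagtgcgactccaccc
The copies begin 169 to 95 bases before the start. Searched on both strands, GGAATG occurred in 14% of 35116 RefSeq promoters of the same length, and among the 13 features that rose and have a promoter there, CTGF was the one with a match.

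A further 13 features belong to the list of YAP and serum response factor targets, and none of them passed. F3, the cell surface receptor that starts coagulation, scored 1.02 and 1.05 at 0.5 h and 1 h, against 1.01, 0.761 and 0.898 at 0 h (difference 0.209, adjusted p = 0.107 by limma). THBS1, a matrix glycoprotein, scored 1.95 and 1.96, against 1.80, 1.76 and 1.85 at 0 h (difference 0.151, adjusted p = 0.126). Of the 15 features of the list, 9 (60%) had both early arrays above all 3 arrays of 0 h and 0 had both below, against 20.7% and 5.2% of all features. Without 0 h replicate 1 the median difference of the list was 0.0787, against 0.0314 for all features.

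Among the transcription factors of the immediate early class, EGR1, JUN and MYC rose. EGR1, a zinc finger factor, scored 1.49 at 0.5 h and 1.44 at 1 h, against 1.18, 1.07 and 1.20 at 0 h. JUN, a subunit of AP1, scored 1.39 at 0.5 h and 1.38 at 1 h, against 1.17, 1.08 and 1.11 at 0 h. MYC, a factor that drives growth genes, scored 1.40 at 0.5 h and 1.54 at 1 h, against 1.03, 1.23 and 1.23 at 0 h. No early array overlapped a 0 h array in any of these genes, and the early pair differed least in JUN. The differences were 0.327 for EGR1 (SE 0.0472, adjusted p = 0.00994 by limma), 0.285 for JUN (SE 0.0365, adjusted p = 0.00479) and 0.236 for MYC (SE 0.0376, adjusted p = 0.022). JUN passed on each early array alone, by 0.288 at 0.5 h (adjusted p = 0.0362) and by 0.283 at 1 h (adjusted p = 0.0286), and it was called under 13 of the 14 alternatives, EGR1 under 11 and MYC under 6. 0 h replicate 1 lay below the other 0 h arrays in MYC, so the difference over all arrays was larger there, 0.304, but did not pass (adjusted p = 0.388).

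The EGR1 promoter is shown because it holds 2 CArG boxes, the element that serum response factor binds, which are given in capitals. It is chr5:138465229-138465528 of GRCh38.p14, plus strand, from RefSeq.
EGR1 promoter: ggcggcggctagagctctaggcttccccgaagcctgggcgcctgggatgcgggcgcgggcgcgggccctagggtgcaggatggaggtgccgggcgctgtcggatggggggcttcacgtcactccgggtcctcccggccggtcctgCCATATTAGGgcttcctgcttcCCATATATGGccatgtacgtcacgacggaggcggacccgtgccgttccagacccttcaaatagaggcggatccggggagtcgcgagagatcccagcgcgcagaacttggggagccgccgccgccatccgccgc
The boxes begin 105 and 83 bases before the start. A CArG box on either strand occurred in 1.29% of RefSeq promoters, and of the 13 features that rose and have a promoter there EGR1 had one. The windows of JUN and PLK2 held neither this element nor the other letters searched, which were GGAATG, TGACGTCA and TGACTCA. These matches describe letters in a window and were not tested against the scores.

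The rest of the list did not pass. CSRNP1, a nuclear protein of the early response, scored 0.199 and 0.325 at 0.5 h and 1 h, against 0.0643, 0.0636 and 0.142 at 0 h (adjusted p = 0.112 by limma). ATF3, a stress factor of the bZIP class, scored 0.302 and 0.247, against 0.127, 0.122 and 0.156 at 0 h (adjusted p = 0.15). FOS, the partner of JUN in AP1, scored 0.244 and 0.0751, near background, against 0.0634, 0.107 and 0.0969 at 0 h (difference 0.0577, adjusted p = 0.452). The 1 h array overlapped the 0 h arrays in FOS and did not in CSRNP1 and ATF3. Over the 20 features of the list, 3 were called. In 9 (45%) both early arrays lay above all 3 arrays of 0 h and in 0 below, against 20.7% and 5.2% of all features. Without 0 h replicate 1 the median difference was 0.0862, against 0.0314 for all features.

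Of the inhibitors that limit ERK signalling, DUSP1, a phosphatase that inactivates MAP kinases, rose. It scored 1.02 at 0.5 h and 1.07 at 1 h, against 0.554, 0.702 and 0.765 at 0 h, so both early arrays lay clear of all 0 h arrays. The difference was 0.311 (SE 0.0401, adjusted p = 0.00479 by limma), and over all 13 arrays it was 0.371, the largest among the 26 called features (adjusted p = 0.195). DUSP1 is also a glucocorticoid target and was the one called of 10 features in that list. SPRY2, a Sprouty inhibitor of receptor tyrosine kinase signals, scored 1.27 and 1.26 at 0.5 h and 1 h, against 1.34, 1.07 and 1.14 at 0 h, where 0 h replicate 1 lay above both early arrays (difference 0.167, adjusted p = 0.098). SPRY1 scored 1.01 and 1.05, against 0.839, 0.885 and 0.925 at 0 h (difference 0.126, adjusted p = 0.166). Among the 15 features of the list 8 (53.3%) had both early arrays above all 3 arrays of 0 h and 0 below, against 20.7% and 5.2% of all features. Without 0 h replicate 1 the median difference was 0.0776, against 0.0314 for all features. The DUSP1 promoter, chr5:172771146-172771445 of GRCh38.p14, minus strand, is shown because it holds the palindrome TGACGTCA of cyclic AMP responsive genes, in capitals, 125 bases before the start.
DUSP1 promoter: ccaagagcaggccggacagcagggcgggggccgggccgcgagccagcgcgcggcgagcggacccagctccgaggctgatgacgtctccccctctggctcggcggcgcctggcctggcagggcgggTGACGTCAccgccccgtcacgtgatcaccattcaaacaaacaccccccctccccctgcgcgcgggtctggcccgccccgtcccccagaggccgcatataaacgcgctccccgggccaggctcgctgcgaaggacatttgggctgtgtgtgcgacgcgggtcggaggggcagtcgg
This motif occurred in 1.85% of RefSeq promoters and in 1 of the 13 of features that rose. TGACTCA, the AP1 element, occurred in 4.95% of promoters and likewise in 1 of the 13, that of PAEP.

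**Figure D2:**
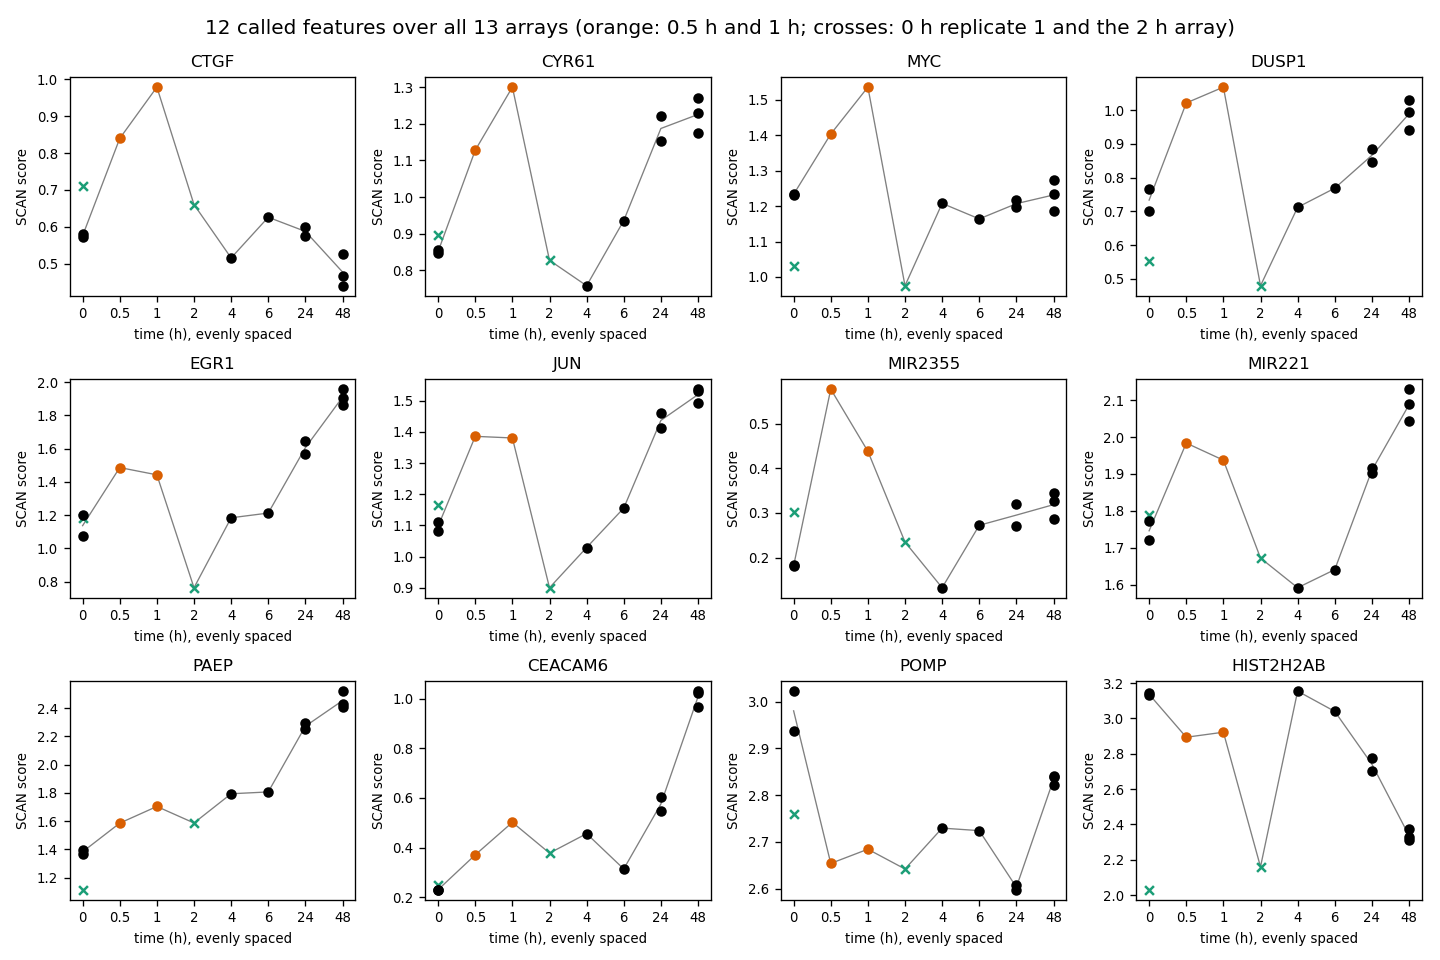
Each panel gives the SCAN score of 1 called feature on the vertical axis against time in hours on an evenly spaced axis, for all 13 arrays. Orange points are the 0.5 h and 1 h arrays, crosses are 0 h replicate 1 and the 2 h array, and the line joins the means without 0 h replicate 1. CTGF and MYC are highest at 1 h, at 0.979 and 1.54, whereas PAEP and CEACAM6 are highest at 48 h.

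2 microRNA loci rose. An array feature at such a locus reads its longer transcript, not the mature microRNA, so the mature sequences below, from RefSeq, identify the loci and were not measured. Bases 2 to 8, the seed by which a microRNA selects its targets, are in capitals. The MIR222 product is set beside that of MIR221 because both 3p arms carry the seed GCUACAU and the loci lie 749 bases apart on chromosome X in GRCh38.p14, within MIR222HG.
hsa-miR-2355-3p: aUUGUCCUugcuguuuggagau
hsa-miR-2355-5p: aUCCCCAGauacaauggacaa
hsa-miR-221-3p: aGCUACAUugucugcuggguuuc
hsa-miR-222-3p: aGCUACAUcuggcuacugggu
MIR2355, which lies within the gene KLF7 on chromosome 2, scored 0.577 at 0.5 h and 0.438 at 1 h, against 0.302, 0.183 and 0.180 at 0 h. No other of the 13 arrays reached the lower of the early scores. The difference was 0.326 (SE 0.0366, adjusted p = 0.0021 by limma), and MIR2355 was the called feature with the smallest adjusted p on the 0.5 h array alone (difference 0.396, adjusted p = 0.00642). KLF7-IT1, by its name an intronic transcript of KLF7, scored 0.794 and 0.631 at 0.5 h and 1 h, against 0.797, 0.432 and 0.445 at 0 h, so 0 h replicate 1 equalled the 0.5 h array and the call (difference 0.274, adjusted p = 0.0086) depends on leaving that replicate out (0.154, adjusted p = 0.626 with it). KLF7 itself, a Kruppel-like transcription factor, scored 1.43 and 1.49, against 1.34, 1.38 and 1.40 at 0 h (difference 0.0708, adjusted p = 0.352).

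MIR221 scored 1.98 at 0.5 h and 1.94 at 1 h, against 1.79, 1.72 and 1.77 at 0 h (difference 0.215, SE 0.0387, adjusted p = 0.0458 by limma). MIR222 scored 0.809 and 0.856 at 0.5 h and 1 h, against 0.749, 0.710 and 0.645 at 0 h (difference 0.155, adjusted p = 0.138). The groups did not overlap at either locus, and MIR222 did not pass. The array held 569 tested features of microRNA loci, with a median difference of 0.012. Of these 2 were called, 73 (12.8%) had both early arrays above and 56 (9.84%) below all 3 arrays of 0 h, and 273 never scored above 0.2. The shares above and below over all tested features were 20.7% and 5.2%.

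Several features that rose were in none of the gene lists described so far. ZNF253 and ZNF675, C2H2 zinc finger genes of chromosome 19 from a family with many similar copies, were with CYR61 the 3 largest differences. ZNF253 scored 2.19 at 0.5 h and 2.31 at 1 h, against 2.09, 1.82 and 1.94 at 0 h (difference 0.370, SE 0.0518, adjusted p = 0.0086 by limma). ZNF675 scored 1.51 and 1.47 at 0.5 h and 1 h, against 1.45, 1.09 and 1.18 at 0 h (difference 0.356, SE 0.0595, adjusted p = 0.0297). In both the early arrays lay above all 0 h arrays, and in ZNF675 0 h replicate 1 stood close below them. PAEP, a secreted lipocalin, scored 1.59 at 0.5 h and 1.70 at 1 h, against 1.11, 1.37 and 1.40 at 0 h (difference 0.262, adjusted p = 0.022). REC8, a cohesin subunit of meiosis, scored 0.443 and 0.413, against 0.246, 0.120 and 0.222 at 0 h (difference 0.257, adjusted p = 0.0305). Neither overlapped with 0 h.

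PRAMEF22, from a gene cluster of near-identical copies on chromosome 1 that probes may not tell apart, scored 0.942 and 1.03 at 0.5 h and 1 h, against 0.735, 0.677 and 0.734 at 0 h (difference 0.279, adjusted p = 0.0133 by limma). DCAF4, a substrate receptor of a cullin ubiquitin ligase, scored 1.06 and 1.01, against 0.878, 0.827 and 0.812 at 0 h (difference 0.212, adjusted p = 0.0238). PLK2, a polo-like kinase induced by p53, scored 0.718 and 0.728, against 0.710, 0.519 and 0.515 at 0 h (difference 0.206, adjusted p = 0.0297). The early arrays cleared 0 h replicate 1 narrowly in PLK2 and widely in DCAF4 and PRAMEF22. The feature with the identifier OTTHUMG00000171410 scored 0.547 and 0.553, against 0.413, 0.360 and 0.284 at 0 h (difference 0.228, adjusted p = 0.0492), and it was called under 4 of the 14 alternatives. Among the other rises, PDGFB and NAMPT were called under 3 of the 14, and MIR221, CEACAM6, GTF2IRD2 and ATG101 under 4. DCAF4, PLK2 and LRRC39 were called under 5. None of the features called under 3, 4 or 5 alternatives passed when the medians of the arrays were set equal. MYC, PAEP and REC8 did not pass there either.

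The remaining rises were named after their values were seen. PDGFB, a chain of platelet-derived growth factor, scored 0.473 and 0.574 at 0.5 h and 1 h, against 0.359, 0.343 and 0.284 at 0 h (difference 0.210, adjusted p = 0.0458 by limma). CEACAM6, a cell adhesion glycoprotein of epithelia, scored 0.371 and 0.502, against 0.250, 0.230 and 0.231 at 0 h (difference 0.206, adjusted p = 0.0465). In both the 1 h array was the higher and no early array overlapped with 0 h. ATG101, taken up again below, was called at a difference of 0.186 (adjusted p = 0.0458 by limma). Against 0 h replicates 2 and 3 it lay 0.0694 higher at 0.5 h and 0.302 higher at 1 h. Its call thus came mostly from the single 1 h array. GTF2IRD2, a TFII-I family factor, scored 1.18 and 1.14, against 1.13, 0.923 and 0.989 at 0 h (difference 0.206, adjusted p = 0.0492). Its near-identical copy GTF2IRD2B scored 0.981 and 1.00, against 0.920, 0.793 and 0.815 at 0 h, and did not pass (difference 0.188, adjusted p = 0.123), so which copy the signal comes from is uncertain.

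In 3 further rises 0 h replicate 1 lay above both early arrays. LINC01004, a long noncoding RNA, scored 1.30 and 1.17 at 0.5 h and 1 h, against 1.37, 0.885 and 0.944 at 0 h (adjusted p = 0.00568 by limma without that replicate, 0.668 with it). LRRC39, a leucine-rich repeat protein, scored 0.409 and 0.427, against 0.520, 0.225 and 0.214 at 0 h (adjusted p = 0.0371 without and 0.711 with it). NAMPT, the enzyme that salvages nicotinamide to NAD, is the name of 2 features that disagree. Whether both read the same gene was not tested. The called one scored 1.06 and 0.931, against 1.11, 0.789 and 0.754 at 0 h (difference 0.224, adjusted p = 0.0392), and the other scored 3.56 and 3.66, against 3.60, 3.61 and 3.61 at 0 h (difference 0.00576, adjusted p = 0.965).

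2 features were lower, and 1 of them had both early arrays below all 0 h arrays. POMP, the chaperone that assembles the catalytic core of the proteasome, scored 2.65 at 0.5 h and 2.68 at 1 h, against 2.76, 3.02 and 2.94 at 0 h. It fell by 0.311 (SE 0.0375, adjusted p = 0.00325 by limma) and passed on each early array alone (-0.327, adjusted p = 0.0163 at 0.5 h, and -0.296, adjusted p = 0.0286 at 1 h). It was called under 13 of the 14 alternatives, the exception being the fit without 0 h replicate 2 (adjusted p = 0.0746). HIST2H2AB, a core histone H2A gene with near-identical copies, scored 2.89 and 2.92 at 0.5 h and 1 h, against 2.03, 3.14 and 3.13 at 0 h. Against 0 h replicates 2 and 3 its difference was -0.229 (SE 0.0385, adjusted p = 0.0297), and with replicate 1 the direction turned, to 0.140 (adjusted p = 0.898).

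The next features by p in this direction did not pass. HIST1H3I, a core histone H3 gene, scored 3.42 and 3.49 at 0.5 h and 1 h, against 2.92, 3.62 and 3.70 at 0 h (difference -0.208, adjusted p = 0.0588 by limma), with replicate 1 again lowest. CSE1L, which returns importin alpha to the cytoplasm, scored 3.01 and 3.05, against 3.09, 3.23 and 3.19 at 0 h (difference -0.177, adjusted p = 0.0722). MIR302A, a microRNA locus of pluripotent cells, scored -0.133 and -0.153, against 0.0322, 0.0566 and 0.0276 at 0 h (difference -0.185, adjusted p = 0.0949), which is all at background.

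The 0.5 h and 1 h arrays were not told apart by these data. No feature differed between them at an adjusted p under 0.05 by limma (0% of 12976 higher and 0% lower), and 198 had an unadjusted p under 0.05. This comparison was made over all 13 arrays, and its median standard error was 0.0707. That of the early arrays against 0 h was 0.0456 over 13 arrays and 0.0393 without 0 h replicate 1. Among the 24 rises the 1 h array was above the 0.5 h array in 13 and below it in 11. ATG101, a subunit of the complex that starts autophagy, had the smallest unadjusted p of the called features, with 0.681 at 1 h, 0.448 at 0.5 h and 0.358, 0.374 and 0.384 at 0 h (1 h minus 0.5 h 0.233, unadjusted p = 0.00102, adjusted p = 1). CYR61 lay 0.172 higher at 1 h than at 0.5 h (unadjusted p = 0.0236), and MIR2355 had a difference of -0.139 (unadjusted p = 0.0778).

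Set against 0 h on its own, without 0 h replicate 1, the 0.5 h array had 6 calls, 5 higher (0.0385% of features tested) and 1 lower (0.00771%). The 1 h array had 12, 11 higher (0.0848%) and 1 lower (0.00771%). JUN and POMP were the 2 features of the 26 that passed in both. CYR61 passed at 1 h (0.448, adjusted p = 0.00369 by limma) and had 0.276 at 0.5 h (adjusted p = 0.0732). MYC passed at 1 h (0.303, adjusted p = 0.0286) and had 0.170 at 0.5 h (adjusted p = 0.207). LINC01004 passed at 0.5 h (0.380, adjusted p = 0.0158) and had 0.251 at 1 h (adjusted p = 0.11). Since the direct comparison called nothing, a pass on 1 array alone does not show that the times differ, and the 2 comparisons share their 0 h arrays.

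**Figure D3:**
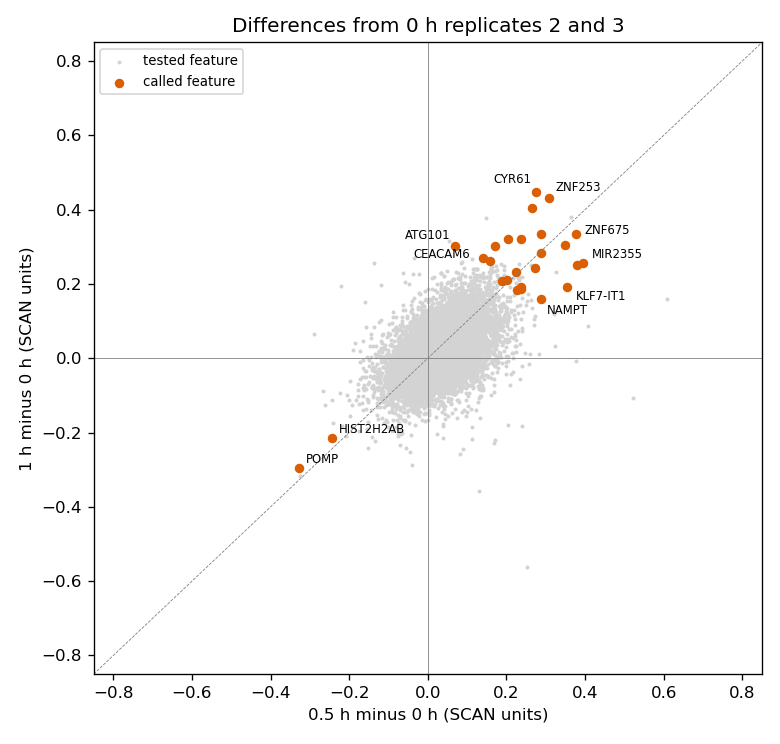
The horizontal axis gives the 0.5 h score and the vertical axis the 1 h score, each minus the mean of 0 h replicates 2 and 3 in SCAN units, with the line of equal differences dashed. Grey points are the 12976 tested features, of which 1 lies outside the axes, and orange points are the 26 called ones. The called features lie in the upper right and lower left, where both arrays have the same sign, with ATG101 the farthest from the line towards 1 h.

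The later times up to 6 h are single arrays and are described without a test. The rises were picked for high scores at 0.5 h and 1 h, so lower scores on other arrays are partly due to that choice. The counts below were made among the rises alone, and the share over all features was not counted. In 20 of the 24 rises the mean of 4 h and 6 h lay below both early arrays, in some of them still above 0 h replicates 2 and 3, as in PDGFB, with a mean of 0.449 at 4 h and 6 h, against 0.314 at 0 h. At 2 h LRRC39, NAMPT and LINC01004 scored 0.705, 1.23 and 1.31, above both early arrays, and ZNF675, PAEP, DCAF4, GTF2IRD2, CEACAM6 and ATG101 lay between them. CTGF scored 0.516 at 4 h and 0.626 at 6 h, and 0.526, 0.466 and 0.440 at 48 h, below every early score. JUN scored 1.03 at 4 h and 1.16 at 6 h, and 1.49, 1.53 and 1.54 at 48 h, above every early score. In 5 features (CTGF, MIR2355, MYC, OTTHUMG00000171410 and PLK2) both early arrays lay above all 11 other arrays. In 10 features all arrays of 48 h lay above both early arrays, among them EGR1, with 1.86, 1.91 and 1.96, and CEACAM6, with 1.03, 0.967 and 1.02. The 2 h array was low in several early genes, with 0.764 for EGR1, 0.900 for JUN, 0.480 for DUSP1 and 0.975 for MYC, each below every array of 0 h. That array moved with 0 h replicate 1 in HIST2H2AB, at 2.16 and 2.03, where the other 11 arrays lay at 2.31 or above.

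Other groups of genes held few or no called features. The features were grouped into 34 lists, and the share with both early arrays beyond all 3 arrays of 0 h is read against 20.7% above and 5.2% below for all features. Of 10 targets of NF-kB 5 lay above and 0 below, with a median difference of 0.0756. TNFAIP3, a ubiquitin-editing brake on this pathway, scored 0.853 and 0.968 at 0.5 h and 1 h, against 0.829, 0.731 and 0.726 at 0 h (difference 0.182, adjusted p = 0.0523 by limma). ICAM1, an adhesion receptor for leukocytes, scored 1.27 and 1.35, against 1.12, 1.09 and 1.11 at 0 h (difference 0.212, adjusted p = 0.0949). Neither overlapped with 0 h and neither passed. Of 11 p53 targets 5 lay above and 0 below, PLK2 being the called one, and GDF15, a stress cytokine, scored 1.56 and 1.60, against 1.27, 1.45 and 1.45 at 0 h (adjusted p = 0.14).

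The EGF receptor family and its ligands had 2 of 10 features above all 0 h arrays and 0 below. HBEGF, a ligand of the EGF receptor, scored 0.703 and 0.716 at 0.5 h and 1 h, against 0.534, 0.577 and 0.555 at 0 h (difference 0.144, adjusted p = 0.107 by limma). PER1, a clock gene that also answers glucocorticoids, scored 0.729 and 0.734, against 0.521, 0.603 and 0.604 at 0 h (difference 0.128, adjusted p = 0.123). IRF9, a subunit of the interferon-activated factor ISGF3, scored 1.29 and 1.29, against 0.956, 1.11 and 1.15 at 0 h (difference 0.157, adjusted p = 0.107). None of these overlapped with 0 h or passed. Among 12 interferon-stimulated features 5 lay above and 1 below, among 12 clock features 4 above and 0 below, and among 12 Kruppel-like factors 4 above and 1 below.

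On the lower side no list apart from the histones held a call. Of 23 mitotic genes 1 lay above and 6 below all 0 h arrays, with a median difference of -0.027, and MKI67, a proliferation marker, scored 2.45 and 2.45 at 0.5 h and 1 h, against 2.63, 2.55 and 2.57 at 0 h (difference -0.105, adjusted p = 0.25 by limma). Of 10 genes of glycolysis and hypoxia 0 lay above and 3 below, with a median difference of -0.0162. LDHA, lactate dehydrogenase A, scored 1.96 and 1.99, against 2.07, 2.11 and 2.14 at 0 h (difference -0.152, adjusted p = 0.107 by limma). Of 11 features of cholesterol synthesis 0 lay above and 3 below, though the median difference was positive, at 0.0133. MSMO1, a sterol oxidase, scored 2.69 and 2.65, against 2.78, 2.83 and 2.80 at 0 h (difference -0.145, adjusted p = 0.107 by limma). TXNIP, an inhibitor of thioredoxin and glucose uptake, scored 1.87 and 1.90, against 1.96, 1.98 and 1.99 at 0 h (difference -0.102, adjusted p = 0.188 by limma). Its list, FOXO, TXNIP and starvation genes, was not lower as a whole. Of 17 features 2 lay above and 2 below, with a median difference of 0.0524. IRS2, its feature with the smallest p, had a difference of 0.165 (adjusted p = 0.107). MKI67, LDHA, MSMO1 and TXNIP did not pass, though each lay below every 0 h array. Of 15 heat shock features 1 lay above and 2 below, with a median difference of -0.0566. HSPB1, a small heat shock protein, scored 3.25 and 3.32 at 0.5 h and 1 h, against 3.25, 3.43 and 3.46 at 0 h (adjusted p = 0.098).

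**Figure D4:**
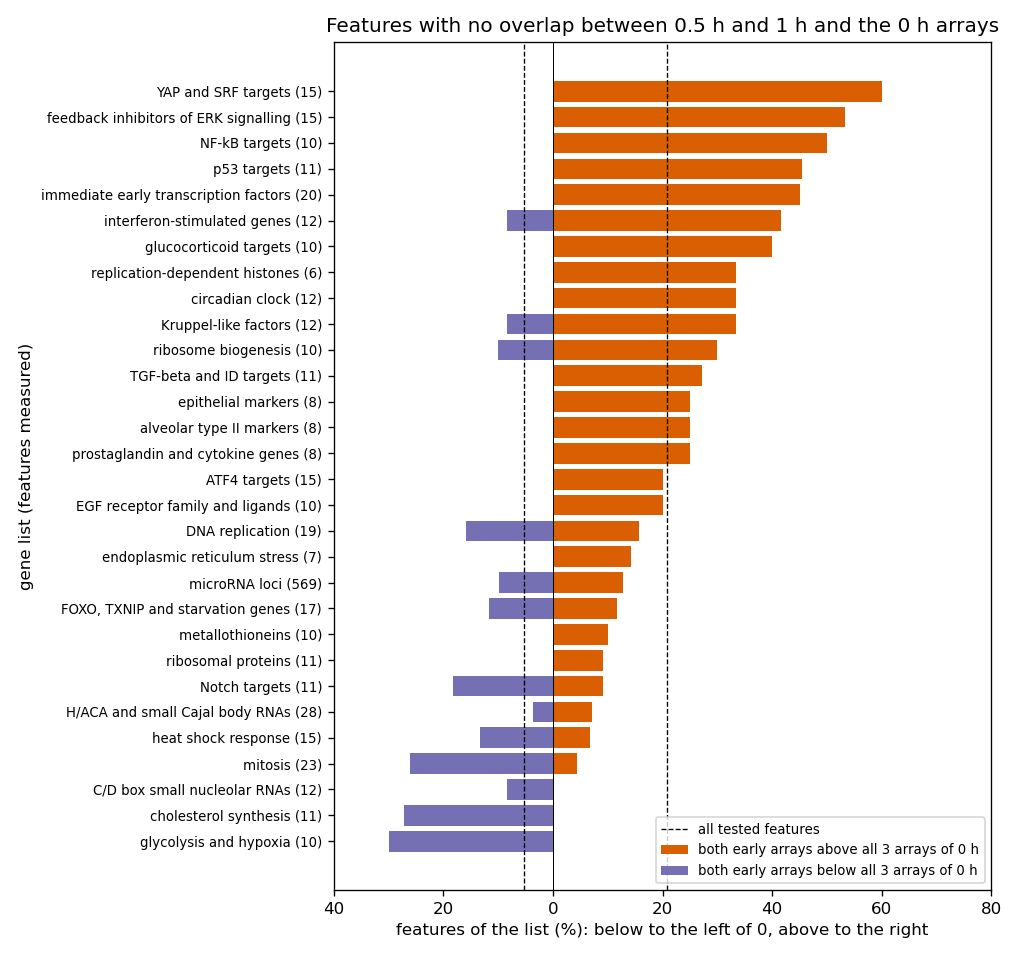
Bars give the percentage of each list's features with both early arrays above (to the right of 0) or below (to the left) all 3 arrays of 0 h, for the lists with at least 5 measured features, whose number is in brackets. Dashed lines mark the share over all tested features, 20.7% above and 5.2% below. YAP and SRF targets reach 60% above, and glycolysis and hypoxia 30% below with 0% above.

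The label of a lung epithelial line was set against marker lists. EPCAM, an epithelial adhesion molecule, scored 2.12 and 2.16 at 0.5 h and 1 h, against 2.15, 2.22 and 2.22 at 0 h, so the groups overlapped. KRT18, a simple epithelial keratin, has 2 features, one with 2.86 and 2.87, against 2.51, 2.91 and 2.97, and the other with 1.464 and 1.498, against 1.338, 1.460 and 1.436. KRT7, another such keratin, scored 1.61 and 1.58, against 1.30, 1.57 and 1.51, and with the second KRT18 feature it made up the 2 of 8 epithelial features above all 0 h arrays, with 0 below. The 8 features of the epithelial list summed to 14.3 and 14.7 on the early arrays, against 13.3 to 14.7 at 0 h. Alveolar type II markers summed to 3.10 and 3.11 over 8 features, against 2.66 to 2.81 at 0 h, with SFTPB, a surfactant protein, near background at 0.115 and 0.135, against 0.0954, 0.0328 and 0.0302. Of other cell types, 1 of 7 fibroblast markers was measured, LUM, a collagen-binding proteoglycan, and scored 0.0709 and 0.0294, against 0.0914, 0.0414 and 0.0118 at 0 h, which is background. Of 8 leukocyte markers 3 were measured, and CD14 and LYZ, both of monocytes, stayed under 0.2 on these arrays, while CD68, a lysosomal protein that other cells make too, scored 2.56 and 2.59, against 2.32, 2.56 and 2.65. Of 5 endothelial markers 3 were measured, with VWF at -0.0355 and 0.00339, against -0.0184, 0.00802 and -0.021, and the 3 summed to 0.748 and 0.884, against 0.565 to 0.720 at 0 h, above every 0 h array. CDH5, an endothelial cadherin, scored 0.389 and 0.395, against 0.247, 0.277 and 0.230 (adjusted p = 0.136 by limma). No marker of these lists passed, and their part in the differences above was not tested.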

How the data were processed

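RNA was analysed from 13 control arrays. The times 0.5, 1, 2, 4 and 6 h have a single array, 24 h has 2, and 0 h and 48 h have 3. The deposited values are scores, which the authors made from GeneChip intensities with Single Channel Array Normalisation (SCAN), array by array, with features after the manufacturer's annotation. The SCAN version and the genome build are not given in the sources used here. Of 39937 features, the platform annotation named 15426, and a partly held result table of the study named 212 more. The 2662 with no score of at least 0 were left out, which left 12976, of which 118 repeat the values of another.

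Differences were tested with limma (version 3.58.1, R version 4.3.3), by lmFit with a level for each time and by eBayes, two-sided and with Benjamini-Hochberg adjustment over the 12976 features. The contrast was the mean of the 0.5 h and 1 h levels minus the 0 h level. Residual degrees of freedom were 5 over 13 arrays and 4 without 0 h replicate 1. A feature was called at an adjusted p under 0.05 with both early arrays on the same side of the 0 h mean. The number of arrays limits the precision, with a median standard error of 0.0456 over 13 arrays and 0.0393 without 0 h replicate 1. The steps were tested on simulated data.

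The members, the gene lists and the omission of 0 h replicate 1 were chosen with earlier results of these data known. The text names the 15 largest rises and falls among called features with both early arrays beyond every 0 h array, filled to 5 by p where fewer passed, and up to 3 members of a list with the smallest p. FOS, KLF7, MIR222, GTF2IRD2B and the second NAMPT feature were added for comparison, and CSRNP1, ATF3, THBS1, NOS3, LPP-AS2 and the other called features after their values were seen. Promoters and microRNAs come from RefSeq (GRCh38.p14), and 13 of the 24 rises had a promoter there. Figures were drawn with matplotlib 3.10.9, after tables made in Python 3.11.15 (numpy 2.4.6, pandas 2.3.3). Alternatives covered normalisation between arrays, filters, array weights, the variance model, arrays left out, and a block for the replicate number.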

Additional observations from a re-analysis of the deposited data

How the results depend on the processing

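The count of called features depended on the processing. Over all 13 arrays it was 0 by limma (1179 features at an unadjusted p under 0.05), 17 with array weights, and 0 to 26 when single arrays were left out, 26 being the value without 0 h replicate 1. HIST2H2AB had a difference of 0.140 over 13 arrays, -0.164 with array weights, and from -0.229 (without 0 h replicate 1) to 0.328 (without 0 h replicate 2) when an array was left out. Without that replicate the count of 26 became 10 after quantile normalisation (9 higher, 1 lower), 45 with only features whose highest score was at least 0.5, 45 with an intensity trend, 42 with robust eBayes, 16 with the 0 h, 0.5 h and 1 h arrays alone as 2 groups, and 0 to 26 when a further array was left out (0 without 0 h replicate 2). With medians set equal it was 24, 11 higher and 13 lower. In settings chosen after seeing the data it was 16 without the 24 h and 48 h arrays and 36 with 1 feature of each set of identical values. The 0.5 h array alone had 6 calls, and 1 after quantile normalisation. The 1 h array alone had 12 calls, 5 after quantile normalisation and 7 with medians set equal. The comparison of 1 h with 0.5 h had 0 calls in every setting run. The cause of these shifts was not tested.

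With the replicate number as a block, 6 features were called without 0 h replicate 1. Same-numbered arrays deviated from their time means at correlations of -0.152 to 0.0617, and different-numbered ones at -0.124 to 0.124. These rest on 2 or 3 arrays per time, and the single 0.5 h and 1 h arrays could not enter. Whether the numbers pair the arrays was therefore not settled. The lone arrays at 0.5 h and 1 h and the 2 or 3 arrays at 0 h limit what can be seen, and a gene that did not pass is not shown to be unchanged.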

Other observations

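Other features did not pass in the comparison without 0 h replicate 1, and 4 of them are given as values, chosen after these were seen. NOS3, the nitric oxide synthase first known from endothelium, scored 1.22 at 0.5 h and 1.26 at 1 h, against 1.08, 1.07 and 1.05 at 0 h (difference 0.179, adjusted p = 0.0511 by limma). LPP-AS2, a noncoding RNA, scored 1.11 and 1.15, against 0.965, 0.888 and 0.932 at 0 h (difference 0.216, adjusted p = 0.0505), and lay lower at 48 h, at 0.685, 0.790 and 0.733, than on any other array. In both the early arrays lay above all 0 h arrays. ARRDC3, an arrestin-domain protein, scored 2.00 and 1.89, against 2.14, 2.08 and 2.07 at 0 h (difference -0.133, adjusted p = 0.118), and INSIG1, a sterol sensor, 2.67 and 2.76, against 2.77, 2.85 and 2.82 at 0 h (difference -0.123, adjusted p = 0.144).

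In several features 0 h replicate 1 and the 2 h array lay together and away from the other early arrays. MIR548K, a microRNA locus, scored 1.66 at 0.5 h and 1.34 at 1 h, against 1.18 and 1.31 on 0 h replicates 2 and 3, while 0 h replicate 1 and the 2 h array scored 2.23 and 2.06. SNORD11, a small nucleolar RNA, scored 0.767 and 0.567 at 0.5 h and 1 h, against 0.511 and 0.382 on 0 h replicates 2 and 3, with 1.06 and 1.12 on the other 2 arrays. The study set aside arrays for an assumed problem with magnesium, and the text does not name them. Whether these arrays were among them was not tested.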
